A study of Mus musculus with 70 samples.

Results

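B16.1 is a mouse melanoma line of C57BL/6 origin, and its response to interferon gamma (IFNg) was read from 6 of the 70 RNA sequencing libraries of the series. Members were taken by line and treatment: 3 libraries of B16.1 cells kept with IFNg at 100 ng/mL for 48 h, and 3 libraries of B16.1 cells with no stimulation (NS), over all genes of the table. No genetic change or other agent was given for either group. The whole series holds 8 mouse cancer lines, each unstimulated or kept for 48 h with IFNg at 100 ng/mL or interferon beta (IFNb) at 1000 units/mL, in 24 groups of 2 or 3 libraries. The other lines were YUMMER1.7 (melanoma), LLC (lung), Renca (renal), MC38.7 and CT26.2 (both colorectal), and Panc02.3 and KPC.2 (both pancreatic). All cells grew in DMEM with serum, and the labels do not say whether the 3 libraries of a group came from separate cultures, so the spread behind each p-value is that between libraries and may be technical.

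Interferon gamma binds the receptor chains Ifngr1 and Ifngr2, whose kinases Jak1 and Jak2 activate factors of the STAT family. STAT dimers bind GAS elements, and the factors made in that first wave, Irf1 among them, act on ISRE elements of further genes. In tumour cells this program is known for raising antigen presentation, chemokines for T cells and the checkpoint ligand PD-L1, and in many cell types for slowing the cell cycle. Melanoma cells also carry the melanocyte program: Mitf, its master factor, drives the enzymes that make pigment.

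Each B16.1 library held between 7759397 and 9773379 estimated counts, and mitochondrially encoded genes took 1.75% to 2.08% of the unstimulated and 2.82% to 2.97% of the IFNg libraries. No pair of replicates differed as little as sampling noise allows. All 7 melanocyte markers were present, with a summed level of 19610 to 20040 CPM (a library's counts scaled to a common total, as counts per 1e+06) unstimulated and 9001 to 9463 CPM with IFNg. Of 18 leukocyte markers, 11 were at 0 counts unstimulated and 7 with IFNg. Ptprc, which marks all leukocytes, was at 0 unstimulated but not with IFNg, and had too few counts to test. Of the 6 leukocyte markers tested, Cd68 and Ms4a1 were higher with IFNg by the test described below, and none was lower. Ms4a1 was at 0 unstimulated. The summed level of the 18 markers went from between 4.28 and 5.2 CPM to between 17.2 and 18.6 CPM. Of this level Cd68 alone held 14.1, 12.1 and 12.4 CPM with IFNg. Summed fibroblast markers went from between 38.68 and 43.4 CPM to between 21.1 and 23.3 CPM, endothelial markers from between 3.39 and 5.38 to between 4.64 and 5.84 CPM, and epithelial markers from between 0.967 and 1.71 to between 0.258 and 0.898 CPM. The part of other cells in the results was not tested.

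IFNg changed 8730 (54.1%) of the genes tested in B16.1. Of 16147 genes tested, 4449 rose (27.6%) and 4281 fell (26.5%) at an adjusted p under 0.05, by the quasi-likelihood test of edgeR, adjusted by Benjamini and Hochberg's method. In what follows, "rose" and "fell" stand for that call, changes are log2 fold changes with their standard error (SE), and levels are CPM after TMM scaling. By at least 2-fold, 1883 genes rose (11.7%) and 1236 fell (7.65%). The sides parted with size: 967 genes rose and 416 fell by at least 4-fold, 625 and 122 by at least 8-fold, and 312 and 36 by at least 32-fold. In 4863 genes (30.1%) every IFNg library lay above every unstimulated library, and in 4594 (28.5%) every one lay below. Of the genes that rose, 446 had 3 or fewer counts over the 3 unstimulated libraries together, and 71 of these reached a mean of at least 10 CPM. In the opposite direction 92 genes fell to 3 or fewer counts, and 5 of them had started at 10 CPM or more: Pgam1-ps2, Gm28439, Gm10052, Gm4202 and Gm45234, all pseudogenes or predicted loci named here after their values were seen, of which Gm28439 and Gm45234 did not pass with DESeq2 (adjusted p = 0.393 and 0.0531). Estimated counts of such copies depend on how reads were split between them and their parent genes, so they are uncertain.

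**Figure D1:**
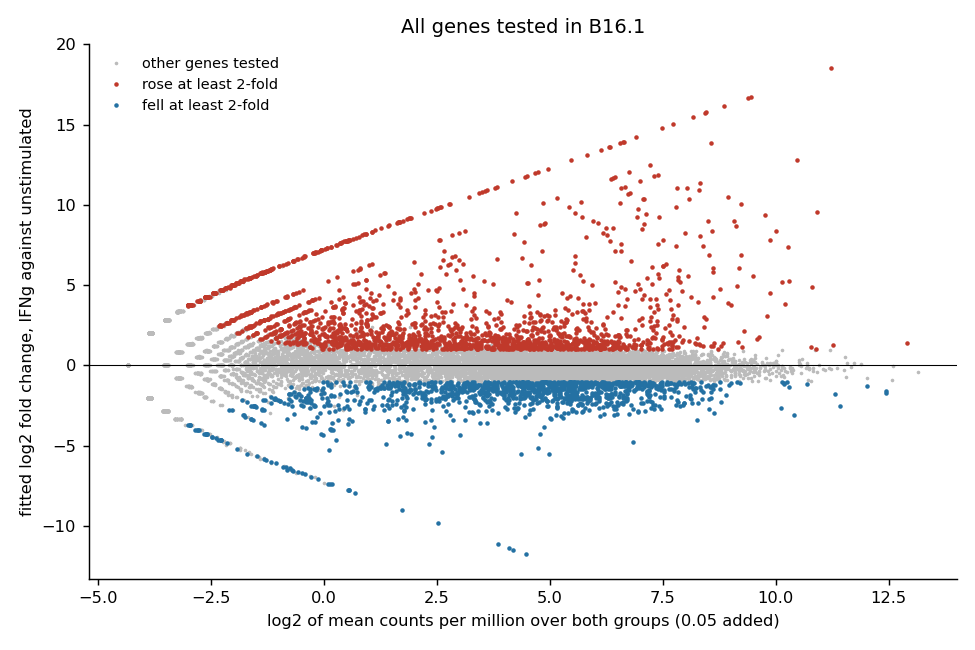
Fitted log2 fold change, IFNg against unstimulated B16.1 (vertical axis), against the log2 of the mean CPM over both groups with 0.05 added (horizontal axis), 1 point for each of the 16147 genes tested. Coloured points are the 1883 genes that rose and the 1236 that fell by at least 2-fold, and the rises reach much further from 0 than the falls.

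Promoter sequence was read for the gene groups that moved together, from RefSeq promoters of GRCm38.p6, searching the 250 bases before each start on both strands. The letters searched were GAAA, any 2 letters and GAAA again for the ISRE, TTCNNNGAA for the GAS element, TTTGAA for the CHR element of cell cycle genes, CCAAT for the CCAAT box, TCATGTG for the M-box that Mitf binds, TTCCCGCC for the E2F site, ATCAC followed at once by CCCAC for the SRE of sterol genes and TGACGTCA for the X2 box of class II genes. An ISRE match stood in 84.6% of the 13 promoters of guanylate-binding and immunity-related GTPases with an entry (of 22 genes), against 3.41% of the 11558 tested genes with an entry, and a GAS match in 53.8% against 7.44%. Among 30 antiviral genes with an entry (of 38) the shares were 40% for the ISRE and 20% for GAS, and among 24 genes of class I presentation (of 31) 12.5% and 8.33%. Mitosis genes held a CHR match in 34.5% of 29 promoters (of 34 genes) and a CCAAT box in 79.3%, where all tested genes had 13.4% and 40.7%. Neither was particular to mitosis: CHR letters stood in 38.5% of the GTPase promoters, and CCAAT boxes in 66.7% of the class I and 100% of the 14 cholesterol synthesis promoters with an entry (of 19 genes). The E2F site was in 0 of the 29 mitosis promoters and in 11.1% of 36 of replication genes (of 45), against 3.75% of all, and the SRE in 0 of the 14 cholesterol promoters and 0.0692% of all. The X2 box, in 2.8% of all, was in at most 1 promoter of each of the 7 groups searched. Class II genes were not searched as a group, so this says nothing about their promoters. Pigment genes held an M-box in 40% of 15 promoters (of 20 genes), against 2.41% of all. A match is a run of letters, not a shown binding site, and nothing follows from its absence. GAS and ISRE letters can overlap on one stretch, and both then count.

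The windows below were chosen after the values of their genes were seen, to show the letters in front of genes that the results turn on. Only genes with a match could be shown. Others looked at, among them Psmb9, Tap1, Cxcl9, Irf7, Nlrc5 and Pmel, gave no window, for want of a match or of an entry. The windows are written 5′ to 3′ on the gene's own strand, with the matches in capitals. None of those printed touches an annotated exon. Some windows with matches that are not printed, such as those of Gbp2, Ccnb1 and Tyrp1, overlap exons of their own genes. In front of Igtp, an immunity-related GTPase, a GAS match begins 45 bases and an ISRE match 34 bases before the start (chr11:58199496-58199546, plus strand).
Igtp: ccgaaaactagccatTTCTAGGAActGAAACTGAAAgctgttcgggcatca
The GAS match of Irf1 begins 90 bases before its start (chr11:53769909-53769947, plus strand).
Irf1: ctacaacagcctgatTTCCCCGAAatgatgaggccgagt
The ISRE match of Cxcl10, a chemokine gene, begins 213 bases before its start, inside the annotated gene Art3 but in none of its exons (chr5:92349078-92349117, minus strand), and that of B2m, the light chain of class I molecules, begins 139 bases before, inside Patl2 and outside its exons (chr2:122147533-122147572, plus strand).
Cxcl10: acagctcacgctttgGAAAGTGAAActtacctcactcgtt
B2m: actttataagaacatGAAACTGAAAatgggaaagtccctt
Top2a, the topoisomerase of dividing cells, carries 6 CCAAT boxes, in either orientation, and CHR matches that begin 179 and 23 bases before the start (chr11:99024192-99024431, minus strand).
Top2a: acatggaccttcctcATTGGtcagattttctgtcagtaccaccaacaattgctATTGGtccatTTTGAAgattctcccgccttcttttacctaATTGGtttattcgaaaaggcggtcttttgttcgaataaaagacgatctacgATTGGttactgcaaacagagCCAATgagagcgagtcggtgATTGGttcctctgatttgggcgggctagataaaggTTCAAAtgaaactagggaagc
The M-box of Tyr, which encodes tyrosinase, begins 22 bases before its start (chr7:87493513-87493549, minus strand), and that of Trpm1, a melanocyte channel, 142 bases before (chr7:64153678-64153714, plus strand).
Tyr: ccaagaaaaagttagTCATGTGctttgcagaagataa
Trpm1: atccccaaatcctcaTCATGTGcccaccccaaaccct

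The cytokine's own signalling chain rose at its transcription factors and hardly at its receptor. Of 12 receptor, kinase and STAT genes 9 rose and 1 fell, with a median log2 change of 0.53, where the median over all genes tested was 0.04. Stat2, part of the type I interferon complex with Irf9, stood at 7.85, 8.99 and 6.66 CPM unstimulated and 332, 342 and 328 CPM with IFNg. Every IFNg library lay far above every unstimulated one, a rise of 5.42 ± 0.12 (SE; adjusted p = 9.6e-43). Stat3 rose by 2.55 ± 0.07. Smaller rises were those of Ifnar2 (1.45 ± 0.08), Jak2 (0.74 ± 0.08) and Ifngr2 (0.40 ± 0.06), while Ifnar1 fell by 0.68 ± 0.06. Ifngr1, the ligand-binding chain, stood at 17.3, 14.5 and 18.1 CPM unstimulated and 16.3, 17.5 and 14.4 CPM with IFNg. Its groups overlapped, and its change of -0.06 ± 0.11 did not pass (adjusted p = 0.71), nor did that of Stat5a (-0.12 ± 0.09, adjusted p = 0.28).

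Interferon regulatory factors and related genes, Batf2 and Batf3 among them, made up a list of 12 tested genes. Of these 10 rose and none fell. Their median was 3.08, against 0.53 for the receptor, kinase and STAT genes, a difference between lists that was not tested. Irf1 (chr11:53770014-53778374, plus strand, in GENCODE M21 on GRCm38) was at 11.8, 12.1 and 11.6 CPM unstimulated and 785, 782 and 767 CPM with IFNg. That is a rise of 6.04 ± 0.08 (adjusted p = 2.4e-54), with the 3 libraries of each group close together. Irf7, the factor that amplifies type I interferon genes, had 6 counts over the 3 unstimulated libraries and a level of 502, 518 and 556 CPM with IFNg, a rise of 11.06 ± 0.19. Irf8, known best from myeloid cells, had 0 unstimulated counts and 602 with IFNg, which is at least 204-fold higher with the unstimulated group set to 3 counts in all. Batf2 rose by 8.57 ± 0.18 and Irf5 by 7.14 ± 0.24. Batf3 (0.20 ± 0.50) did not pass, at under 2 CPM. Some brakes on the pathway rose: Socs1, the inhibitor of JAK kinases, by 6.69 ± 0.25, Socs3 by 2.70 ± 0.13, and Usp18, which blunts signalling at the type I receptor, by 9.45 ± 0.19. Over the whole list of 17 inhibitors 5 rose, a share near the 27.6% of all genes, 3 fell and 9 did not pass. The falls, named because they are few, were those of the phosphatase Ptpn11 (-0.51 ± 0.07), Socs6 (-0.45 ± 0.09) and Pias2 (-0.45 ± 0.08).

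The GTPases that attack pathogen compartments came from near silence to high levels. All 11 tested immunity-related GTPases rose (median 10.50) and 10 of 11 guanylate-binding proteins rose (median 9.55), none falling in either list. Igtp (chr11:58199556-58207591, plus strand) was at 0.498, 0 and 0.625 CPM unstimulated and 2805, 2834 and 2843 CPM with IFNg. One unstimulated library had no count at all, and the rise of 12.78 ± 0.14 (adjusted p = 5.9e-58) was the largest among named genes with more than 3 counts in both groups. Irgm2 rose by 10.52 ± 0.18 from 17 unstimulated counts. With 0 unstimulated counts, Tgtp1 reached 4763 CPM (at least 40854-fold), Gbp4 1408 CPM (at least 12054-fold), Iigp1 1339 CPM (at least 11460.0-fold) and Gbp10 709 CPM (at least 6056-fold). Tgtp1 and Tgtp2 are near-identical copies, as are several guanylate-binding proteins, so the split of reads between them is uncertain. Gbp2 was not among the genes the naming rule chose and was added for its level, 5.86, 5.17 and 4.48 CPM unstimulated and 3924, 3850.4 and 3734 CPM with IFNg. Its rise was 9.54 ± 0.11. Gbp2b, with 1 unstimulated count and 5 with IFNg, did not pass (adjusted p = 0.22).

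Genes of class I antigen presentation rose from peptide cutting to the presented chain, though not all of them. B2m (chr2:122147686-122153083, plus strand) stood at 122, 116 and 122 CPM unstimulated and 3554, 3429 and 3461 CPM with IFNg. No library of one group came near the other, a rise of 4.86 ± 0.07 (adjusted p = 8.4e-52). H2-K1, a classical heavy chain, stood at 7.10, 8.62 and 8.95 CPM unstimulated and 1782, 1869 and 1941 CPM with IFNg. It rose by 7.82 ± 0.12 and the other classical chain, H2-D1, by 5.24 ± 0.07. Nlrc5, the factor that drives class I promoters, had 2 counts over the 3 unstimulated libraries and 5126 with IFNg, a CPM ratio of 2604 (95% interval 720.4 to 21506) whose exact interval, like those that follow, covers counting error only. Of 14 nonclassical class I genes 11 rose and none fell (median 2.61), led among those with more than 3 counts in both groups by H2-T23 (8.84 ± 0.22) and H2-T22 (6.10 ± 0.08). H2-M3 went from 0 counts to 5.31 CPM, at least 46.1-fold. Reads of these similar H2 genes are hard to assign, so single values are uncertain.

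Peptide supply moved with the presenting chains. The transporter subunits Tap2 and Tap1 rose by 8.08 ± 0.11 and 6.90 ± 0.11, the loading factors Tapbp and Tapbpl by 5.57 ± 0.07 and 4.79 ± 0.11, and the trimming peptidase Erap1 by 4.15 ± 0.08. Tap1 was at 6.85, 7.02 and 4.69 CPM unstimulated and 722, 732 and 737 CPM with IFNg, with no overlap. The general chaperones of the same list behaved otherwise: Calr and Canx, named as the only members that fell, changed by -0.22 ± 0.06 and -0.37 ± 0.06. All 5 immunoproteasome genes rose (median 5.31). Psmb9 rose by 10.34 ± 0.19, Psmb10 by 5.30 ± 0.11, and the activator subunits Psme2 and Psme1 by 4.26 ± 0.07 and 3.93 ± 0.09. Psmb8 had 1 unstimulated count and 4185 with IFNg, a CPM ratio of 4251 (95% interval 763 to 167965). The constitutive proteasome changed far less. Of 9 subunits 6 rose and none fell, with a median of 0.37 and Psma7 the largest at 0.67 ± 0.08.

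Class II chains came up from 0 counts, and the invariant chain reached the highest level of the list. Of 13 tested members 9 rose and 1, Rfxap (-0.29 ± 0.12), fell, and 2 had too few counts to test. The call of Rfxap was lost without the first or second library of either group, with values from -0.18 to -0.31 and adjusted p-values from 0.0593 to 0.264. Ciita, the class II master factor, had 2 unstimulated counts and 92 with IFNg (a CPM ratio of 46.73 with a 95% interval of 12.57 to 391.6). Cd74, the invariant chain, was at 0.249, 0.246 and 0 CPM unstimulated and 181, 184 and 197 CPM with IFNg, and no unstimulated library reached 1 CPM. It rose by 10.12 ± 0.24 (adjusted p = 2.8e-41). The chains H2-Aa, H2-Eb1 and H2-Ab1 went from 0 counts in every unstimulated library to 1.83, 1.16 and 0.606 CPM, at least 15.6-, 9.82- and 5.08-fold. Ctss, the protease that clears the invariant chain, went from 0 counts to 6.25 CPM. Rfxank (0.27 ± 0.14) did not pass.

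Some ligands that inhibit T cells and phagocytes rose, PD-L1 furthest among those named. Of 22 tested checkpoint and evasion genes 9 rose, 1 fell and 12 did not pass, with a median of 0.998. Of all genes 27.6% rose. In this list 16 of the 22 had more than 3 counts in either group. Some that did not pass, such as Ido1 and Vtcn1, had 0 counts in both groups and could not pass. Cd274, which encodes PD-L1 (chr19:29367455-29388095, plus strand), stood at 8.22, 6.41 and 7.18 CPM unstimulated and 254, 246 and 224 CPM with IFNg. The groups were far apart, a rise of 5.05 ± 0.10 (adjusted p = 1.1e-44). Tnfrsf14 rose by 4.63 ± 0.39, the galectins Lgals3 and Lgals9 by 3.90 ± 0.10 and 3.67 ± 0.07, and Cd47, the signal against engulfment, by 3.14 ± 0.06. Nectin3 was the 1 that fell (-0.58 ± 0.09), and Cd276 (-0.31 ± 0.18) and Ceacam1 (-0.60 ± 0.40) did not pass. Among 9 ligands and adhesion molecules of natural killer cells 2 rose and 1 fell, where 27.6% of all genes rose and 26.5% fell. Ulbp1 rose by 2.50 ± 0.30 and Vcam1 with a CPM ratio of 8.13 (95% interval 1.91 to 72.9) from 2 counts, and Alcam fell by 1.002 ± 0.10.

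Chemokines that draw T cells rose to high levels, Cxcl9, Cxcl11 and Ccl5 from almost none and Cxcl10 from a level already measurable. Of 25 chemokine and cytokine genes 15 rose and none fell (median 3.25). Cxcl10 (chr5:92346638-92348889, minus strand), a ligand of Cxcr3, stood at 15.1, 13.7 and 15.5 CPM unstimulated and 2452, 2494 and 2488 CPM with IFNg. The rise was 7.39 ± 0.14 (adjusted p = 9.6e-46). Its neighbour Cxcl9 (chr5:92321347-92328079, minus strand), a ligand of the same receptor, had 1 unstimulated count and stood at 799.6, 754 and 732 CPM with IFNg, a ratio of 19572 (95% interval 3512 to 773096). Cxcl11, the third such ligand, went from 0 counts to 241 CPM (at least 2074-fold). Ccl5, which also recruits T cells, stood at 1.25, 1.23 and 0.937 CPM unstimulated and 1151, 1212 and 1249 CPM with IFNg, a rise of 10.05 ± 0.13. Il7, a survival factor for lymphocytes, went from 0 counts to 1.34 CPM. Il33 (1.55 ± 1.08) did not pass, at under 1 CPM in both groups.

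**Figure D2:**
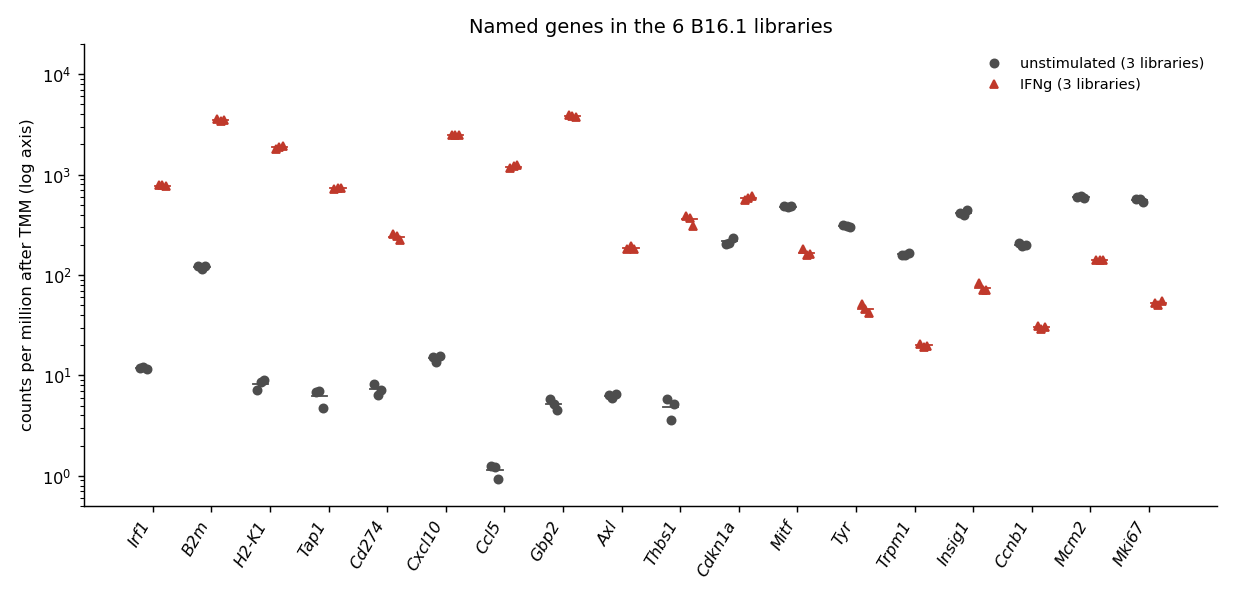
CPM after TMM scaling (vertical log axis) of 18 genes in each of the 3 unstimulated libraries (circles) and 3 IFNg libraries (triangles). Within a gene the 3 points of a group lie close together beside the gap between the groups, upward from Irf1 to Cdkn1a and downward from Mitf to Mki67.

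The antiviral program was raised almost as a whole. Of 38 antiviral effectors 33 rose and none fell (median 6.52), and of 20 nucleic acid sensors and their partners 17 rose and 1, Tlr4 (-0.72 ± 0.13), fell (median 4.82). Oas2, which makes the activator of the nuclease RNase L, went from 0 counts to 202 CPM (at least 1736-fold). Its relative Oasl2 was at 1.12, 0.123 and 0 CPM unstimulated and 534, 534 and 553 CPM with IFNg. Most of the 10 unstimulated counts were in 1 library and the groups did not overlap, and the rise was 10.39 ± 0.20. Ifit3b, one of a family that binds foreign RNA and a near copy of Ifit3, rose by 9.86 ± 0.18. Ifi44 had 2 unstimulated counts and 7999 with IFNg (CPM ratio 4063 (95% interval 1124 to 33556)). Zbp1, a sensor of Z-form nucleic acid, went from 0 counts to 579.7 CPM (at least 4979.5-fold). Several HIN200 genes rose, though not all: Ifi211 rose by 10.37 ± 0.26 and Ifi203 by 9.76 ± 0.21. Ifi204 and Mndal had CPM ratios of 4311 (95% interval 1193 to 35602) and 4489 (95% interval 805 to 177354). Aim2, also a HIN200 gene (-0.36 ± 0.58), did not pass, nor did Mavs, the adaptor of RNA sensing (-0.09 ± 0.08). Of 7 Parp and Dtx genes 6 rose and none fell, led by Parp14 (8.71 ± 0.13) and the partners Parp9 and Dtx3l (5.60 ± 0.08 and 5.19 ± 0.10).

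Inflammatory caspases and gasdermin D rose. Of 19 death receptors, caspases and partners 13 rose, 3 fell and 3 did not pass (median 1.40). Casp4, which senses bacterial lipid, was at 1.37, 1.11 and 1.77 CPM unstimulated and 90.5, 90.8 and 90.3 CPM with IFNg, a rise of 5.97 ± 0.18. Gsdmd, the pore that caspases open, was at 2.37, 1.23 and 2.29 CPM unstimulated and 90.5, 104 and 105 CPM with IFNg, a rise of 5.65 ± 0.14. In neither gene did the groups come near each other. Casp12 went from 0 counts to 89.0 CPM (at least 760.2-fold), and the death ligand Tnfsf10 rose by 6.34 ± 0.35. Casp8, the caspase of death receptors, rose by 0.67 ± 0.06. Among the members that fell were the adaptor Fadd (-0.48 ± 0.09) and Casp6 (-0.29 ± 0.09), while Casp9 (-0.08 ± 0.08) and Gsdme (-0.22 ± 0.13) did not pass. The call of Casp6 rested on the third libraries: it was -0.21 (adjusted p = 0.149) without that of the unstimulated group and -0.25 (adjusted p = 0.0621) without that of the IFNg group. In the BCL2 family 6 of 12 rose and 1 fell. Rises were found on both sides of that family: in Bid (2.49 ± 0.08), Bbc3 (1.53 ± 0.12) and Bak1 (1.11 ± 0.06), which promote death, and in Bcl2l1 (1.25 ± 0.08), which opposes it. Bax (-0.07 ± 0.07) and Bcl2 (-0.07 ± 0.08) did not pass.

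Other inflammatory genes rose with them. Of 17 NF-kB genes and targets 13 rose and 2, Nfkb1 and Rel, fell (median 1.42). The groups of Rel overlapped, and its change of -0.34 ± 0.14 did not pass with DESeq2 (adjusted p = 0.0551), with voom (0.0681), or without the third unstimulated library (-0.15, adjusted p = 0.466) or the first or second IFNg library (adjusted p = 0.121 and 0.0962). Bcl3 went from 0 counts to 18.6 CPM (at least 161-fold), the inhibitor Nfkbie rose by 2.89 ± 0.08 and Birc3 by 2.51 ± 0.17. Of 18 complement and serpin genes 12 rose and none fell (median 3.41). C4b was at 0.623, 0.739 and 0.833 CPM unstimulated and 166, 158 and 155 CPM with IFNg, a rise of 7.73 ± 0.16, and C3 had 1 unstimulated count and 293 with IFNg (a CPM ratio of 297.7 with a 95% interval of 53.01 to 11796). Serpina3f went from 0 counts to 114 CPM. Of 16 apolipoprotein L and metabolic genes 11 rose and 2 fell. Apol9b and Apol9a rose by 11.34 ± 0.19 and 10.94 ± 0.18, with reads that their similarity makes hard to assign, and Acod1, which makes itaconate, went from 0 counts to 7.34 CPM.

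**Figure D3:**
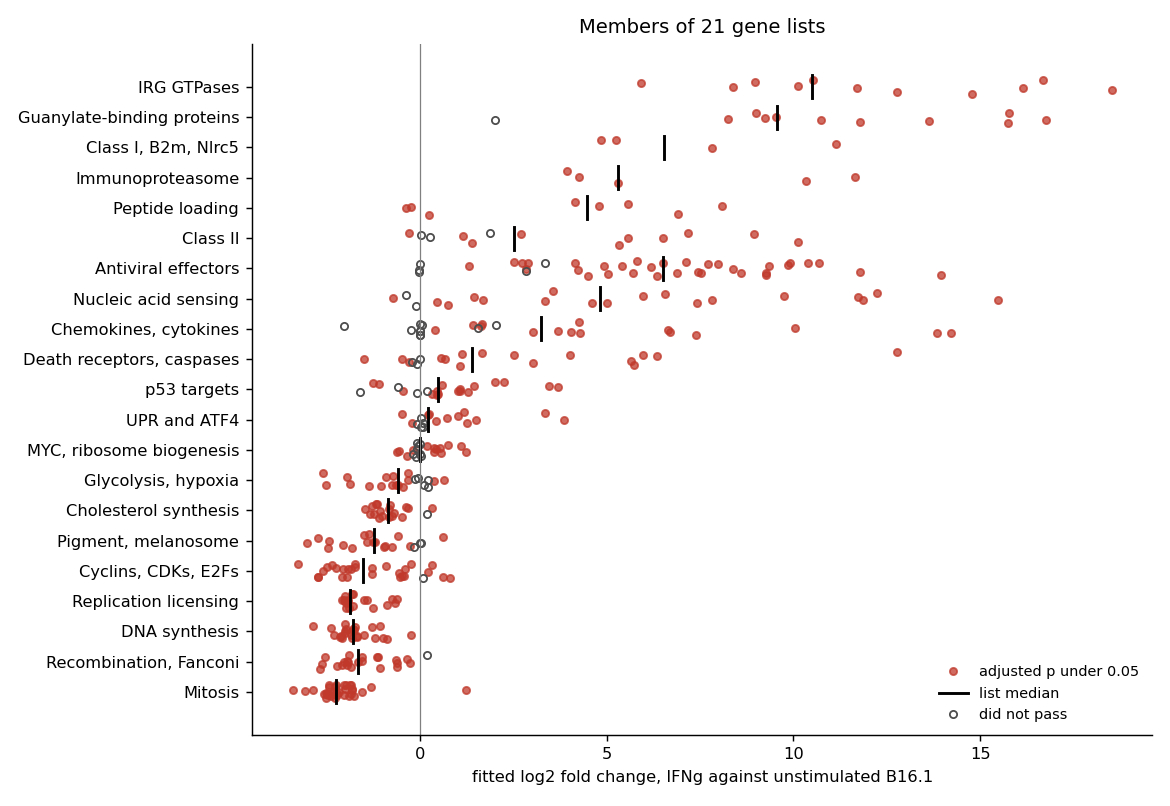
Fitted log2 fold change, IFNg against unstimulated B16.1 (horizontal axis), of each tested member of 21 gene lists (rows), filled where the adjusted p was under 0.05, with the list median as a bar. The GTPase lists sit furthest right and the mitosis, replication and recombination lists lie almost wholly left of 0, where fitted values of genes with 0 counts in a group are not measured folds.

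Genes of the cell cycle fell together. Of 34 mitosis genes 33 fell and 1 rose, with a median of -2.23. All 20 genes of replication licensing fell (median -1.86), as did all 25 of DNA synthesis (median -1.79) and 22 of 23 of homologous recombination and the Fanconi pathway (median -1.65). Of 28 cyclins, their kinases and E2F factors 23 fell and 4 rose (median -1.51). In bulk RNA, fewer cycling cells and less of these RNAs in each cell cannot be told apart.

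Mki67, the marker of cycling cells (chr7:135689784-135716361, minus strand), stood at 573, 569.5 and 529 CPM unstimulated and 52.6, 50.4 and 55.5 CPM with IFNg. Every IFNg library lay far below every unstimulated one, and the gene fell by 3.40 ± 0.13 (adjusted p = 3.2e-30). Ccnb1, the cyclin of mitotic entry, stood at 209, 192 and 197 CPM unstimulated and 31.2, 28.9 and 30.7 CPM with IFNg. It fell by 2.72 ± 0.10, the cyclin Ccna2 by 2.72 ± 0.08 and the repressor E2f8 by 3.25 ± 0.09. Mcm2, part of the replicative helicase, stood at 593, 606 and 591 CPM unstimulated and 143, 140.1 and 142 CPM with IFNg, and fell by 2.08 ± 0.08 with groups far apart. The nucleotide enzymes Tk1 and Rrm1 fell by 2.86 ± 0.09 and 2.37 ± 0.08, the ligase Lig1 by 2.29 ± 0.06, and the recombination and checkpoint genes Fanci, Fancd2 and Chek1 by 2.67 ± 0.11, 2.63 ± 0.10 and 2.53 ± 0.12. Spindle genes went the same way: Bub1, Kif11 and Aurkb fell by 3.06 ± 0.10, 2.86 ± 0.09 and 2.55 ± 0.09. Top2a, whose promoter is printed above and which the naming rule did not choose, fell by 2.28 ± 0.07.

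The exceptions were few. Pttg1, the anaphase inhibitor securin, was the 1 mitosis gene that rose (1.24 ± 0.13). The cyclins and kinases that rose were Ccnd1 (0.32 ± 0.05), Ccnd2 (0.21 ± 0.06), Ccnd3 (0.62 ± 0.07) and Cdk6 (0.81 ± 0.09), the D-type cyclins and a kinase they activate. Other genes of the same phase fell, among them Cdk4 (-0.39 ± 0.06), the other kinase of D-type cyclins, and Ccne1 (-0.24 ± 0.07). E2f4 (0.09 ± 0.08) and the damage kinase Atm (0.19 ± 0.13) did not pass.

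Of the 8 inhibitors of cyclin-dependent kinases only Cdkn1a rose and 4 fell. Cdkn1a, the p53 target p21 (chr17:29090976-29100727, plus strand), stood at 203, 210.0 and 236 CPM unstimulated and 554, 580.4 and 608 CPM with IFNg. That is a rise of 1.43 ± 0.08 (adjusted p = 6.8e-23). Cdkn3, Cdkn2d, Cdkn2c and Cdkn1b fell by 2.06 ± 0.19, 1.31 ± 0.11, 1.11 ± 0.08 and 0.23 ± 0.07, and Cdkn2a had 0 counts in all 6 libraries, which allows up to 0.117 CPM unstimulated and 0.118 CPM with IFNg. Of 21 p53 targets and regulators 14 rose and 3 fell (median 0.50). The growth arrest genes Gadd45b, Gadd45g and Gadd45a rose by 3.70 ± 0.17, 3.45 ± 0.32 and 2.01 ± 0.16, Plk2 by 2.25 ± 0.10 and the p53 ligase Mdm2 by 1.45 ± 0.07. The 3 that fell were Zmat3 (-1.24 ± 0.08), Sesn1 (-1.09 ± 0.13) and Ccng1 (-0.45 ± 0.07), named because they are few. Of 18 genes linked to senescence 5 rose and 4 fell, where 27.6% of all genes rose and 26.5% fell. Only 11 of the 18 had more than 3 counts in either group. Members such as Mmp3 and Areg had 0 counts and could not pass, so these shares do not show whether the list stood out. Lmnb1, whose loss marks senescent nuclei, fell by 2.70 ± 0.07 and Hmgb2 fell by 2.999 ± 0.11, both also higher in cycling cells. Igfbp7 and Timp1 rose by 3.51 ± 0.43 and 1.59 ± 0.14.

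The pigment program fell, while one of its upstream factors rose. Of 20 pigment and melanosome genes 16 fell and 1, Hps1, rose, with a median of -1.23. Mitf (chr6:97807052-98021349, plus strand) stood at 482, 473 and 488 CPM unstimulated and 179.8, 159 and 161 CPM with IFNg. Its groups did not overlap, and it fell by 1.53 ± 0.07 (adjusted p = 5.3e-26). Tyr, the enzyme that starts melanin synthesis (chr7:87424771-87493512, minus strand), stood at 311, 308 and 304 CPM unstimulated and 52.0, 45.6 and 41.4 CPM with IFNg. It fell by 2.73 ± 0.08 (adjusted p = 3.6e-35). Trpm1 (chr7:64153835-64269775, plus strand) stood at 158, 158 and 165 CPM unstimulated and 20.8, 19.1 and 19.8 CPM with IFNg, and fell by 3.01 ± 0.14. The melanosome carrier Rab27a, the transporters Oca2 and Slc45a2, and the fibril protein Pmel fell by 2.45 ± 0.08, 2.43 ± 0.24, 2.06 ± 0.07 and 1.81 ± 0.08. Dct and Tyrp1, the enzymes after Tyr, fell by 1.26 ± 0.07 and 0.92 ± 0.07. Gpnmb, a melanosome glycoprotein, stood at 6185, 6294 and 6277 CPM unstimulated and 6391, 6115 and 6178 CPM with IFNg. Its groups overlapped and its change of -0.01 ± 0.08 did not pass (adjusted p = 1.0), nor did that of Rab38 (-0.15 ± 0.08).

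Among 10 tested regulators of the melanocyte lineage 2 rose and 5 fell, where 27.6% of all genes rose and 26.5% fell. Kit, the receptor of melanoblast survival (chr5:75574916-75656722, plus strand), was at 5.98, 6.16 and 6.14 CPM unstimulated and 0.261, 0.455 and 0.112 CPM with IFNg. It fell by 4.40 ± 0.57 (adjusted p = 2.7e-07). Pax3, which acts on the Mitf promoter, fell by 0.48 ± 0.07 and Zeb2 by 0.58 ± 0.09. Sox10, the other activator of Mitf, rose: it stood at 438, 437 and 426 CPM unstimulated and 552, 590.4 and 599.8 CPM with IFNg, a change of 0.42 ± 0.06 (adjusted p = 5.8e-07). Erbb3 rose by 0.97 ± 0.09. Mc1r, the receptor for melanocyte-stimulating hormone (0.06 ± 0.09), and Lef1 (-0.63 ± 0.57) did not pass.

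Of 22 genes tied to a dedifferentiated or neural crest state 7 rose, 3 fell and 12 did not pass, with a median of 0.58. The share that rose was near the 27.6% of all genes, and 26.5% of all genes fell. Axl, a receptor kinase (chr7:25757273-25788705, minus strand), stood at 6.36, 5.91 and 6.46 CPM unstimulated and 180.4, 193 and 179.8 CPM with IFNg. The rise was 4.88 ± 0.10 (adjusted p = 2.2e-45). Ngfr, the neural crest receptor, had 1 unstimulated count and stood at 14.1, 15.7 and 17.3 CPM with IFNg, a CPM ratio of 406 (95% interval 72.5 to 16089.8). Fosl2 rose by 3.38 ± 0.14, and Aldh1a3, Sox9 and S100b, the 3 that fell, changed by -2.40 ± 0.37, -0.91 ± 0.22 and -0.83 ± 0.18. Cd44 (-0.05 ± 0.08) and Sox4 (0.11 ± 0.08) did not pass. The members that were called did not move as one. Of the 22 tested, 16 had more than 3 counts in either group. Some of the 12 that did not pass, such as Sox2 and Twist1, had 0 counts in both groups and could not pass. Of 15 Wnt targets and MAPK feedback genes 3 rose and 7 fell. Dusp6, a phosphatase of ERK, rose by 1.76 ± 0.08, while Dusp4, Etv5 and Axin2 fell by 1.49 ± 0.12, 2.19 ± 0.43 and 1.45 ± 0.22.

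Sterol synthesis fell along most of its length. Of 19 enzymes 17 fell and 1, Ebp, rose (median -0.84). Lss, which closes the first sterol ring system, stood at 124, 120.0 and 118 CPM unstimulated and 43.0, 45.0 and 43.0 CPM with IFNg. Its groups did not overlap, and it fell by 1.47 ± 0.07 (adjusted p = 2.2e-25). Msmo1 and Cyp51, later enzymes, fell by 1.34 ± 0.05 and 1.22 ± 0.07. Insig1, which holds the sterol sensor back, stood at 410.4, 399.8 and 441 CPM unstimulated and 83.0, 70.2 and 70.2 CPM with IFNg. It fell by 2.49 ± 0.07 and the regulator Srebf2 by 0.90 ± 0.06, while the ubiquitin ligase Mylip rose by 1.41 ± 0.12. Of 13 fatty acid genes 10 fell and 1 rose (median -0.62): Elovl6, Scd2 and Acly fell by 1.65 ± 0.07, 1.18 ± 0.10 and 0.87 ± 0.06.

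Glycolysis and hypoxia genes mostly fell, 14 of 21, and 2 rose (median -0.59). The lactate exporter Slc16a3 fell by 2.59 ± 0.17, Pdk1 by 1.95 ± 0.21 and Bnip3 by 1.87 ± 0.29, while Aldoa (-0.13 ± 0.11) and Hk2 (-0.04 ± 0.08) did not pass. Myc rose, at 26.7, 23.5 and 25.1 CPM unstimulated and 58.1, 60.9 and 58.8 CPM with IFNg, a change of 1.24 ± 0.08. Its list of partners and ribosome biogenesis genes did not follow as a body: 9 of 21 rose, 4 fell and 8 did not pass. The median was 0.000161, and of all genes 27.6% rose and 26.5% fell. Of 17 genes of the unfolded protein response and Atf4 10 rose and 2 fell. Ddit3, the stress factor CHOP, stood at 20.7, 30.4 and 32.9 CPM unstimulated and 258, 294 and 312 CPM with IFNg, a rise of 3.35 ± 0.15, and Atf3 rose by 3.86 ± 0.17. The chaperone Hspa5 (0.04 ± 0.05) and Atf4 itself (0.10 ± 0.12) did not pass. Of 18 lysosome and autophagy genes 10 rose and 2 fell, with Ctsh (3.37 ± 0.16) and Ctsb (1.64 ± 0.06), both cathepsins, ahead.

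Matrix genes moved in both directions. Of 23 tested 11 rose and 5 fell (median 0.82), where 27.6% of all genes rose and 26.5% fell. Thbs1, thrombospondin (chr2:118111876-118127133, plus strand), stood at 5.86, 3.57 and 5.21 CPM unstimulated and 391, 374 and 309.8 CPM with IFNg, a rise of 6.19 ± 0.18 (adjusted p = 1.7e-37). Fbn1 and Mmp9 went from 0 counts to 2.14 and 0.907 CPM. The partners of type I collagen went in opposite directions: Col1a2 fell by 3.59 ± 0.19, at 20.9, 21.4 and 18.3 CPM unstimulated and 1.96, 1.25 and 1.80 CPM with IFNg, and Col1a1 rose by 0.98 ± 0.17, at 6.73, 5.54 and 5.73 CPM unstimulated and 12.9, 11.4 and 11.2 CPM with IFNg. Of 13 mitochondrially encoded genes 6 rose and 3 fell (median 0.18), with mt-Co1 the largest rise (1.42 ± 0.15) and mt-Nd3, which fell by 0.90 ± 0.24.

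The 12 largest falls among named genes were of mixed kind. Npnt, an integrin ligand of basement membranes, stood at 9.72, 13.3 and 12.5 CPM unstimulated and 0.261, 0.455 and 0.112 CPM with IFNg, and fell by 5.36 ± 0.28 (adjusted p = 3.1e-24). Megf6 and Fam81a fell by 5.14 ± 0.28 and 4.49 ± 0.52, and Kit, given above, was among the 12. The lipid transporter Abca12 stood at 53.8, 57.3 and 54.3 CPM unstimulated and 4.44, 3.64 and 3.59 CPM with IFNg, and fell by 3.82 ± 0.27. Adcy2, Kbtbd11, Adam12 and Zfp969 fell by 4.28 ± 0.52, 4.18 ± 0.48, 3.81 ± 0.54 and 3.65 ± 1.17. With DESeq2 the falls of Adcy2 and Zfp969 were of like size but did not pass (adjusted p = 0.779 and 0.812). Pgk1-rs7 (-5.54 ± 0.74) and Rpl19-ps11 (-4.25 ± 1.01), also among the 12, are copies of Pgk1 and Rpl19, whose reads they may share, so these values are uncertain, and Rpl19-ps11 did not pass with DESeq2 (adjusted p = 0.162).

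To see where B16.1 differs from other lines, its response was tested against the equally weighted mean response of the other 7 lines. The response of B16.1 was higher by at least 2-fold in 1523 genes (9.43%) and lower in 815 (5.05%). This contrast has little power for genes at 0 counts in a group of another line: of 4054 such genes 192 were called. Among antiviral effectors the response of B16.1 was higher in 32 of 38 and lower in 1, and among immunity-related GTPases higher in 10 of 11, at an adjusted p under 0.05, where 23.9% of all genes were higher and 20.7% lower. The cell cycle lists stood apart by the same test: the response was lower in 33 of 34 mitosis genes, 20 of 20 licensing genes and 25 of 25 DNA synthesis genes. For Mki67 the difference was -3.29 ± 0.14 (adjusted p = 3.3e-28), with changes of 0.54 in KPC.2 and -0.67 in Panc02.3 as the outermost of the other lines. The spindle gene Ska1 departed by -3.35 ± 0.19, from 17.1 to 2.25 CPM in B16.1.

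Over 43 lists the median of B16.1 lay above all 7 other lines in 21, below all of them in 8 and between them in 14. The order of medians was not tested. Those below were the cell cycle, replication and recombination lists, the pigment and melanocyte regulator lists, and the Wnt and MAPK feedback list. For the last the margin was small, at -0.569 against -0.532 in Panc02.3. The melanocyte regulator medians were also close, at -0.389 against -0.262 in CT26.2. Fewer members of the pigment and melanocyte regulator lists entered the medians of the other lines. The mitosis median was -2.23 in B16.1 and ran from -0.191 (Panc02.3) to 0.417 (KPC.2) elsewhere. The antiviral median was 6.52 against 0.604 (YUMMER1.7) to 3.78 (KPC.2). Such medians are of changes, not levels, and starting levels of interferon genes differed between lines. Irf7, outside that list, was at 0.235 CPM in unstimulated B16.1, 285 in YUMMER1.7, 0.550 in LLC and 0.476 in MC38.7. With IFNg it was at 525 CPM in B16.1 and 473 in YUMMER1.7. The part of starting levels in the order of medians was not tested. In class II the order was different, with 2.53 for B16.1 below the 5.95 of KPC.2, and cholesterol synthesis fell further in Panc02.3 (-1.73) than in B16.1 (-0.838).

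**Figure D4:**
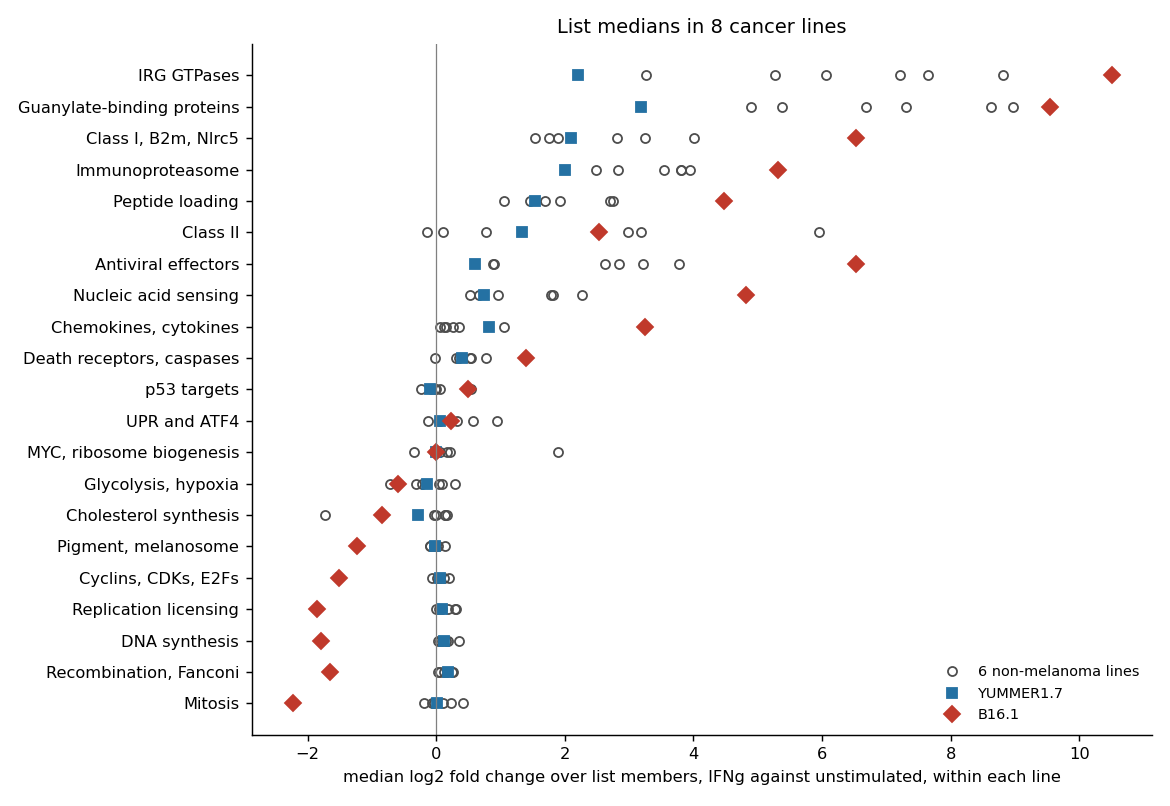
Median log2 fold change over list members (horizontal axis), IFNg against unstimulated within each line, for gene lists in rows, with B16.1 as diamonds, YUMMER1.7 as squares and the 6 other lines as open circles. B16.1 lies at -2.23 for mitosis, where the other lines lie between -0.191 and 0.417, and at 6.52 for antiviral effectors, where they reach 3.78.

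The 6 largest departures upward under the naming rule were those of Apol9b, Ccl5, Ifi211, Irf7, Apol9a and Prph. Irf7 departed by 8.27 ± 0.33 (adjusted p = 2.2e-29): it went from 0.235 to 525 CPM in B16.1 (means of 3 libraries). YUMMER1.7, CT26.2 and Renca held between 248 and 285 CPM unstimulated and between 473 and 699 CPM with IFNg. LLC and MC38.7 started as low as B16.1, at 0.550 and 0.476 CPM, and stood at 9.23 and 12.6 CPM with IFNg. KPC.2 went from 2.22 to 55.1 CPM and Panc02.3 from 21.2 to 128 CPM. Ccl5 departed by 8.45 ± 1.42, with 1.14 and 1204 CPM in B16.1. The other lines held between 0.0473 (KPC.2) and 92.8 CPM (YUMMER1.7) unstimulated, and their level with IFNg lay between 0.508 CPM (Renca) and 338 CPM (YUMMER1.7). Ifi211 departed by 8.33 ± 0.71, and Prph, the intermediate filament peripherin, by 7.26 ± 0.97, from 4 counts unstimulated to 293 with IFNg. Thbs1, named here for the contrast of its levels, rose in B16.1 and in Panc02.3 went from 1473 to 72.5 CPM, a departure of B16.1 from the mean of 6.77 ± 0.18. Axl departed by 4.77 ± 0.10: B16.1 started at 6.24 CPM where the other lines held between 51.1 (Renca) and 1091 CPM (YUMMER1.7) unstimulated. Tyr and Trpm1 departed downward by -3.52 ± 0.39 and -3.40 ± 0.70, but in the unstimulated and IFNg libraries of the other 7 lines Tyr was at most 2.35 CPM and Trpm1 at most 3.13 CPM, so these departures set B16.1 against lines with little of either.

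Against YUMMER1.7 alone, the other melanoma, the response of B16.1 was higher by at least 2-fold in 1613 genes (9.99%) and lower in 968 (5.99%). B2m was already high in unstimulated YUMMER1.7, at 1751 CPM against 3602 with IFNg, and was at 120.0 and 3481 in B16.1, a difference of response of 3.82 ± 0.09 (adjusted p = 3.6e-41). The difference for Cd274 was 2.03 ± 0.14 and for Igtp 9.54 ± 0.18. In the cell cycle lists 33 of 34 mitosis genes and 25 of 25 DNA synthesis genes responded lower in B16.1 (19.5% of all genes at an adjusted p under 0.05), with Mki67 at -3.07 ± 0.18. Mitf fell in B16.1 and went from 19.99 to 22.8 CPM in YUMMER1.7, a difference of -1.73 ± 0.13 (adjusted p = 7.7e-17). For Tyr the difference of -2.18 ± 1.09 did not pass (adjusted p = 0.12), at no more than 0.3595 CPM in any unstimulated YUMMER1.7 library.

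IFNg and IFNb, both given for 48 h at the doses above, were compared directly in B16.1. IFNg gave higher levels by at least 2-fold in 1258 genes (7.79%) and lower in 1035 (6.41%). Against the same unstimulated libraries, which both cytokines share, IFNb raised 581 genes (3.6%) and lowered 134 (0.83%) by that margin, where IFNg raised 1883 and lowered 1236. At an adjusted p under 0.05, of any size, IFNb raised 14.6% and lowered 14.3% of all genes. The antiviral list was raised by both: 32 of 38 members rose with IFNb (median 3.99) and 33 with IFNg (median 6.52), and in the direct test 33 were higher with IFNg, where 26% of all genes tested were (adjusted p under 0.05). Irf7 was at 131 CPM with IFNb and 525 with IFNg, a direct difference of 2.001 ± 0.09. Class I differed in size, with B2m at 1269 and 3481 CPM (difference 1.46 ± 0.06), and Irf1 differed more, at 42.4 and 778 CPM (4.20 ± 0.07). Gbp8 and H2-Aa had 0 counts with IFNb as they had unstimulated, and 1145 and 46 counts with IFNg.

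The fall of the cell cycle genes differed between the cytokines by the direct test, with 33 of 34 mitosis genes, 20 of 20 licensing genes and 24 of 25 DNA synthesis genes lower with IFNg than with IFNb (24.5% of all genes were lower at an adjusted p under 0.05). Against unstimulated cells the mitosis median was -0.10 with IFNb and 8 of 34 members fell. Mki67 was at 531 CPM with IFNb, between the 557 CPM unstimulated and the 52.8 CPM with IFNg, and close to the former. The metabolic lists fell with both: with IFNb 18 of 19 cholesterol enzymes fell (median -0.61, against -0.84 with IFNg) and 16 of 21 glycolysis and hypoxia genes fell (median -0.65, against -0.59). In the direct test 9 cholesterol enzymes were lower and 3 higher with IFNg, and 4 glycolysis and hypoxia genes lower and 7 higher. Pigment genes fell with both, 15 of 20 with IFNb (median -0.54) and 16 of 20 with IFNg (median -1.23), and 13 were lower with IFNg in the direct test. Kit was at 6.83 CPM with IFNb and 0.276 with IFNg (-4.57 ± 0.57, adjusted p = 1.8e-07). Mitf was at 315 and 167 CPM (-0.91 ± 0.07). In the list of the unfolded protein response and Atf4, 12 of 17 members fell with IFNb and 10 rose with IFNg, and 15 were higher with IFNg in the direct test, Atf4 by 0.93 ± 0.12.

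**Figure D5:**
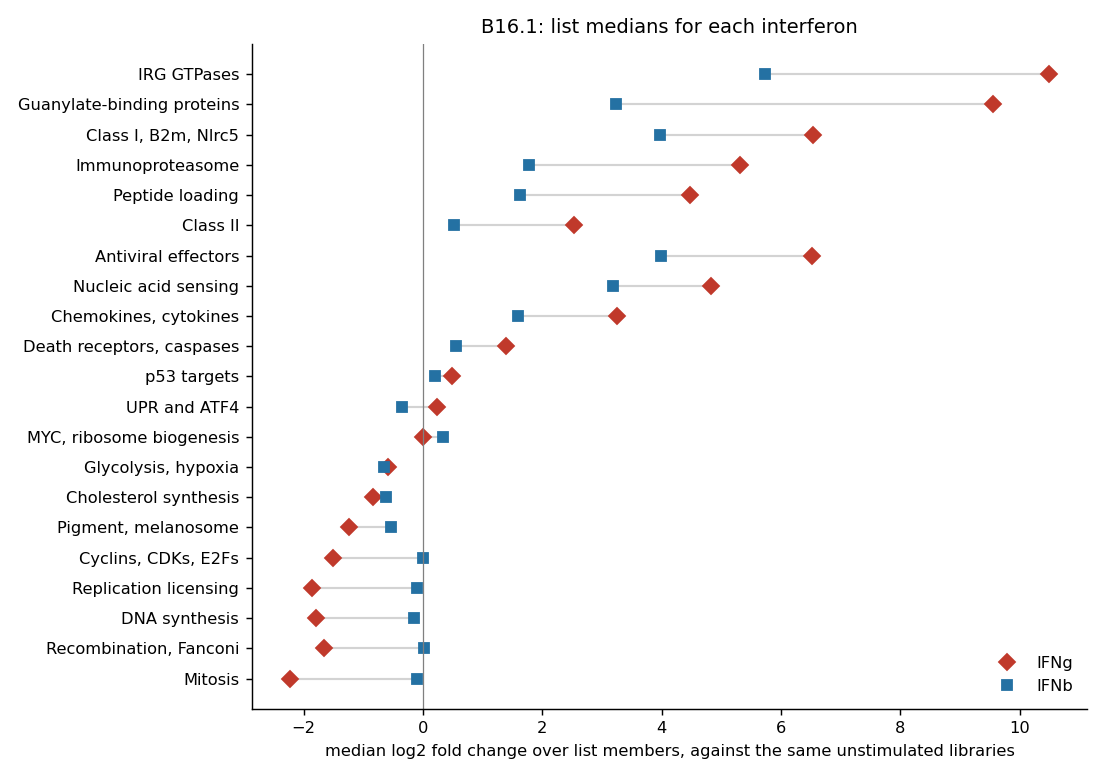
Median log2 fold change over list members in B16.1 (horizontal axis), against the same 3 unstimulated libraries, with IFNg as diamonds and IFNb as squares, for gene lists in rows. The antiviral medians are 6.52 and 3.99, while the mitosis medians are -2.23 and -0.10.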

How the data were processed

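The authors deposited estimated counts of genes, unscaled, in 1 table of 70 RNA sequencing libraries. Reads were trimmed with Trimmomatic 0.36 and quantified by kallisto (no version stated) on the mm10/GRCm38 build, as the submitters' processing notes have it; how transcripts were summed to genes is not given in the sources used here. Sample titles tied columns to samples. The estimated counts were rounded to whole numbers and fitted with edgeR 4.0.16 in R 4.3.3 (TMM, filterByExpr, quasi-likelihood, 1 coefficient for each of 24 groups, Benjamini-Hochberg over 16147 of 35197 genes), so that the 70 libraries shared one estimate of the spread. The SE was computed from the log2 fold change and its F value. DESeq2 1.42.0 and limma 3.58.1 (voom), other scalings, no filter, the 6 libraries alone, a replicate block and leaving out each library were tried.

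The comparison, the members and the gene lists were chosen with earlier results of these data known. Named genes were the 12 largest rises and 12 largest falls with groups that do not overlap and more than 3 counts in each, the 6 highest levels from 3 or fewer unstimulated counts, the 6 largest departures each way from the other lines, up to 5 called and 2 uncalled members of each list, and some fixed genes; predicted loci were counted, not named. A few genes the rule chose are not reported here. Genes outside this rule were chosen after their values were seen, most as the few of a list that moved against the rest: Calr, Canx, Casp6, Ccnd2, Ccnd3, Ccne1, Ccng1, Cdk4, Cdk6, Ebp, Fadd, Gbp2, Hps1, Ifnar1, Ifngr2, Nectin3, Nfkb1, Pias2, Pttg1, Rel, Rfxap, S100b, Sesn1, Sox9, Tlr4, Top2a, Zmat3 and the pseudogenes said to be so. In list medians a group with 3 or fewer counts was set to 3, and a member with no more than 3 in either group did not enter. Replicate numbers carry no stated meaning, and same-numbered libraries did not deviate together (correlations -0.0052, 0.0019 and 0.0323), so they were not used as pairs. Intervals and floors cover counting error only. Promoters are RefSeq entries of GRCm38.p6, matched by symbol.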

Additional observations from a re-analysis of the deposited data

Results flagged for a closer look

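Differences between lines under the same contrast were looked for by the test of the difference itself. The response of B16.1 to IFNg was higher than the mean response of the other 7 lines by at least 2-fold in 1523 genes and lower in 815, and against YUMMER1.7 higher in 1613 and lower in 968. The named departures upward were those of Apol9b (8.76 ± 0.52, adjusted p = 8e-22), Ccl5 (8.45 ± 1.42), Ifi211 (8.33 ± 0.71), Irf7 (8.27 ± 0.33), Apol9a (7.74 ± 0.30) and Prph (7.26 ± 0.97, adjusted p = 1.4e-08), as log2 differences. Those downward were Pgk1-rs7 (-5.20 ± 0.84), Npnt (-4.32 ± 0.41), Abca12 (-4.04 ± 0.44), Tyr (-3.52 ± 0.39), Trpm1 (-3.40 ± 0.70, adjusted p = 5.1e-05) and Ska1 (-3.35 ± 0.19). The sizes for Tyr and Trpm1 are uncertain, since the other 7 lines had little of either. Groups at 0 counts entered them, Tyr in unstimulated KPC.2 and Trpm1 in unstimulated MC38.7.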

How the results depend on the processing

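No count of genes past 2-fold moved by 1.5 times or more under any alternative run. For IFNg against unstimulated B16.1 the 1883 rises and 1236 falls became 1800 and 1185 with DESeq2, 1938 and 1254 with voom, 1831 and 1412 without a filter and 1486 and 1073 when the 6 libraries were fitted alone. Leaving out 1 library at a time gave 1709 to 1900 rises and 1186 to 1243 falls. With a replicate block they were 1821 and 1223, and with the block in the 6 libraries alone 1479 and 1076; the numbers do not pair the libraries. The block gave 1480 and 799 for the departure from the other 7 lines, 1548 and 948 against YUMMER1.7, and 1197 and 1012 for IFNg against IFNb. Over 240 genes named here and 14 settings, 3286 of 3332 values kept direction and side of the threshold, 26 lost the call, 12 gained it and 8 changed sign. The sign changes were all of genes that did not pass: Gpnmb was 0.0041 with RLE scaling and with DESeq2, 0.0158 with upper quartile scaling, and 0.0122 and 0.012 in the 6 libraries alone without and with the block; Hspa5 was -0.0154 and Mc1r -0.0019 without a filter; Ifngr1, with 1 library left out at a time, ran from -0.1455 to 0.0011. Rab38 passed with DESeq2, with voom, without a filter and in the 6 libraries alone, and Ccnd2 did not pass without a filter. The cause of these changes was not tested. At this depth a level under 0.117 CPM over the unstimulated libraries could not be told from 0.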
